A study of Mus musculus with 39 samples.

Results

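Haemoglobin transcripts were followed through liver and triceps surae muscle, the calf muscle group, of mice with reduced insulin gene dosage. The 6 genes considered are the adult alpha-globin genes Hba-a1 and Hba-a2, the adult beta-globin genes Hbb-bs and Hbb-bt, Alas2 and Bpgm. They were taken by gene symbol from the kallisto count tables and make up 6 of the 46517 genes listed there. All 6 were present in the tables. The pairs of near-identical globins were summed into Hba and Hbb, so that 4 rows were tested, and each of these passed the filter on low counts in both tissues.

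Red blood cells carry oxygen on haemoglobin, a tetramer of alpha and beta chains, each holding a haem group. Young red cells (reticulocytes) leave the marrow with globin mRNA but no nucleus, so blood left in an organ adds globin transcripts to its RNA. Alas2 makes the enzyme that starts haem synthesis in erythroid cells, whereas Alas1 does this in other cells. Bpgm makes 2,3-bisphosphoglycerate, which lowers the oxygen affinity of haemoglobin. In bulk tissue, more blood in the sample, a larger share of young red cells and more globin mRNA per cell cannot be told apart.

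All mice were female, 25 weeks old, of a mixed C57BL/6 and 129 background, lacked Ins1 in every group (Ins1-/-), and were fasted for 4 h. They carried Ins2+/- or Ins2+/+, and ate diet B (Research Diets D12330, 5.56 kcal per g, 58% of calories from fat) or diet A (LabDiet 5LJ5, 4.68 kcal per g, 25% from fat). Carbohydrate gave 26% in diet B and 55% in diet A, and protein 16% and 20%. Liver and muscle each had the 4 combinations of Ins2+/- or Ins2+/+ with diet B or diet A, with 5 libraries per group and 4 for Ins2+/+ livers on diet B (replicates 2 to 5), which makes 19 livers and 20 muscles. The labels do not say whether a liver and a muscle of the same number came from the same mouse, nor whether organs were perfused.

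Libraries held 1289204 to 54249746 estimated counts in liver and 1060465 to 13709526 in muscle. Ins1, deleted in all groups, had counts in 2 of 39 libraries (3 and 11), and Ins2 had 1 to 21268 counts in liver and 3 to 50648 in muscle. The high Ins2 counts came with other islet transcripts, and 6 livers and 9 muscles held Iapp, Gcg, Sst and Ppy at 5 CPM or more in sum. Hepatocyte marker sums were 99709 to 152158 normalised CPM in liver and 146 to 1930 in muscle, and muscle fibre marker sums were 0.263 to 123 in liver and 65925 to 145787 in muscle, so the tissue labels fit their markers. One muscle (Ins2+/- diet B replicate 2) had 49.7% of its counts in mitochondrial genes, against a muscle median of 18.5%. Livers Ins2+/- diet B 2 and 3 were the deepest libraries, at 54249746 and 48823029 counts, against 3911716 to 10254685 in the rest of their group. They were taken as alike, which is not quantified here, and the fits were also made with them as 1 library.

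The sequences show why the globin rows had to be summed. Hba-a1 (GRCm38, chr11:32283511-32284465, plus strand) and Hba-a2 (chr11:32296489-32297298, plus strand) lie 12.02 kb apart. Their coding sequences, read from the GENCODE transcripts, have 429 bases each, differ at 1 base and encode the same 142 residues. Hbb-bs (chr7:103826534-103828096, minus strand) and Hbb-bt (chr7:103812524-103813996, minus strand) lie 12.54 kb apart, and their coding sequences of 444 bases likewise differ at 1 base and encode the same 147 residues. Ins2 lies on the same chromosome, 38.85 Mb from Hbb-bs. All of these are reference sequences, and the alleles carried by these mice of mixed background were not examined. Whether Hbb alleles go with Ins2 genotype was not tested. The differing bases, C381T from Hba-a1 to Hba-a2 and C417T from Hbb-bs to Hbb-bt, are counted from the A of the start codon, and are the capitals in these 41-base stretches:
Hba-a1: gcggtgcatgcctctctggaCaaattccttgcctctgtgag
Hba-a2: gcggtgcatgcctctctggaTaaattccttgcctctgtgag
Hbb-bs: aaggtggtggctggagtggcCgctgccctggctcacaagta
Hbb-bt: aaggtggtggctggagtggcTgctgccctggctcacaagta

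Kallisto assigns reads through stretches of 31 bases, and 71.3% of the distinct 31-base stretches of the Hba-a1 transcript also occur in Hba-a2, as do 91.0% of those of Hba-a2 in Hba-a1. Of the stretches of Hbb-bs, 66.9% occur in Hbb-bt, and of those of Hbb-bt, 59.4% in Hbb-bs. Hba-a1 and Hbb-bs share 0 such stretches. The split within a pair therefore rests on the stretches that are not shared, and within the coding sequences on 1 base. Hba-a2 had the smallest share of stretches of its own. The split between Hba and Hbb does not have this limit.

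The promoter windows are printed because the members differ in them while some of their transcripts move together. Each holds the 250 bases before the RefSeq start of the gene (GRCm38.p6), 5′ to 3′ on the gene's strand. Capitals mark AGATAA and TGATAA (forms of the site of GATA1, the main erythroid transcription factor), CACCC (the box bound by KLF1, an erythroid factor), CCAAT and TATAA, searched on both strands, so that the reverse complement of each is also in capitals. Matches may overlap.
Hba-a1 (chr11:32283422-32283671, plus): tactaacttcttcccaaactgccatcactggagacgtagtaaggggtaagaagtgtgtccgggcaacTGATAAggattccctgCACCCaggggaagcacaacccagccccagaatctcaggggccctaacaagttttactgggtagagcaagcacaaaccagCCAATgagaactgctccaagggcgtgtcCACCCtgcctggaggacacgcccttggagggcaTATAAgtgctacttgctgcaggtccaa
Hbb-bs (chr7:103827929-103828178, minus): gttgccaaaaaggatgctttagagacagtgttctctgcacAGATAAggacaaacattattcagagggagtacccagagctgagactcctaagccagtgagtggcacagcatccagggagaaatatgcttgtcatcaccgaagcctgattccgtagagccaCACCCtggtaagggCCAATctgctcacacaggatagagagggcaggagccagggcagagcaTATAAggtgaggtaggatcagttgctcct
Alas2 (chrX:150547167-150547416, plus): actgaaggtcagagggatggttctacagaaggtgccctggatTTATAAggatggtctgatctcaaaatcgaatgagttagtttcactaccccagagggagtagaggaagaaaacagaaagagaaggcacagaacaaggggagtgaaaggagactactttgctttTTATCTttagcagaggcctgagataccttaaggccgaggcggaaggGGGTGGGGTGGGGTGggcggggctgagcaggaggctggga
Bpgm (chr6:34476106-34476355, plus): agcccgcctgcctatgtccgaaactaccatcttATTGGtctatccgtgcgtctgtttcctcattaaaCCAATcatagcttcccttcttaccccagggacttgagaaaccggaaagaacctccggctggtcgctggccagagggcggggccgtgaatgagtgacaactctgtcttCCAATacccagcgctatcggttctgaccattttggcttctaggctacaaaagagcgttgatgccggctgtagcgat

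The Hba-a1 and Hba-a2 windows are the same over a run of 247 bases, and the Hbb-bs and Hbb-bt windows are 74% identical. TGATAA occurs in both alpha-globin windows, and AGATAA in those of Hbb-bs and Alas2. Neither GATA form was found in the windows of Hbb-bt and Bpgm. CACCC occurs in all of these windows except that of Bpgm. Among 27025 promoter windows of this length, 17.0% hold either GATA form, 51.3% hold CACCC and 7.16% hold both, while CCAAT is in 34.5% and TATAA in 23.5%. A match is a description of the letters, not evidence of a bound factor.

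Globin transcripts were a small part of the RNA in both tissues. The 4 globin genes together made up 0.0115% to 0.0626% of all counts in liver and 0.00684% to 0.0311% in muscle. Per length, Hbb and Hba were the most abundant of the tested rows in liver, with medians of 351 and 265 CPM per kb of transcript, against 7.49 for Alas2 and 4.98 for Bpgm. In muscle the medians per kb were 141 for Hbb, 124 for Hba, 43.7 for Bpgm and 1.03 for Alas2. The order of Alas2 and Bpgm thus differed between the tissues, with Bpgm close to Alas2 in liver and well above it in muscle.

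All 4 rows differed between liver and muscle, with the globins and Alas2 higher and Bpgm lower in liver. Levels below are CPM (counts per 1000000 counts) scaled by edgeR's TMM method over all 39 libraries (normalised CPM). Hbb ranged between 65.3 and 364 normalised CPM in liver (median 224), against 29.5 to 187 in muscle (median 92.7). Hba ranged between 64.5 and 279.8 in liver (median 159), against 39.4 to 140.2 in muscle (median 76.4). The tissues overlapped for both sums, and 18 of 19 livers lay above the muscle mean for Hbb and 16 of 19 for Hba.

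In edgeR's quasi-likelihood test over all libraries, Hbb was 1.96-fold higher in liver than in muscle (log2 0.97 ± 0.18 SE, adjusted p = 8.77e-06). Hba was 1.91-fold higher (log2 0.93 ± 0.17 SE, adjusted p = 6.08e-06). All adjusted p-values are Benjamini and Hochberg values over all genes tested, and a row was called at an adjusted p below 0.05. Between these organs 77.8% of the 13712 genes tested were called, 38% as higher and 39.8% as lower in liver, so a call in this comparison is the usual outcome for a gene. Leaving out the 15 libraries with islet transcripts gave log2 differences of 0.88 for Hbb and 0.76 for Hba, with adjusted p of 0.00445 and 0.00772 in edgeR's test.

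**Figure D1:**
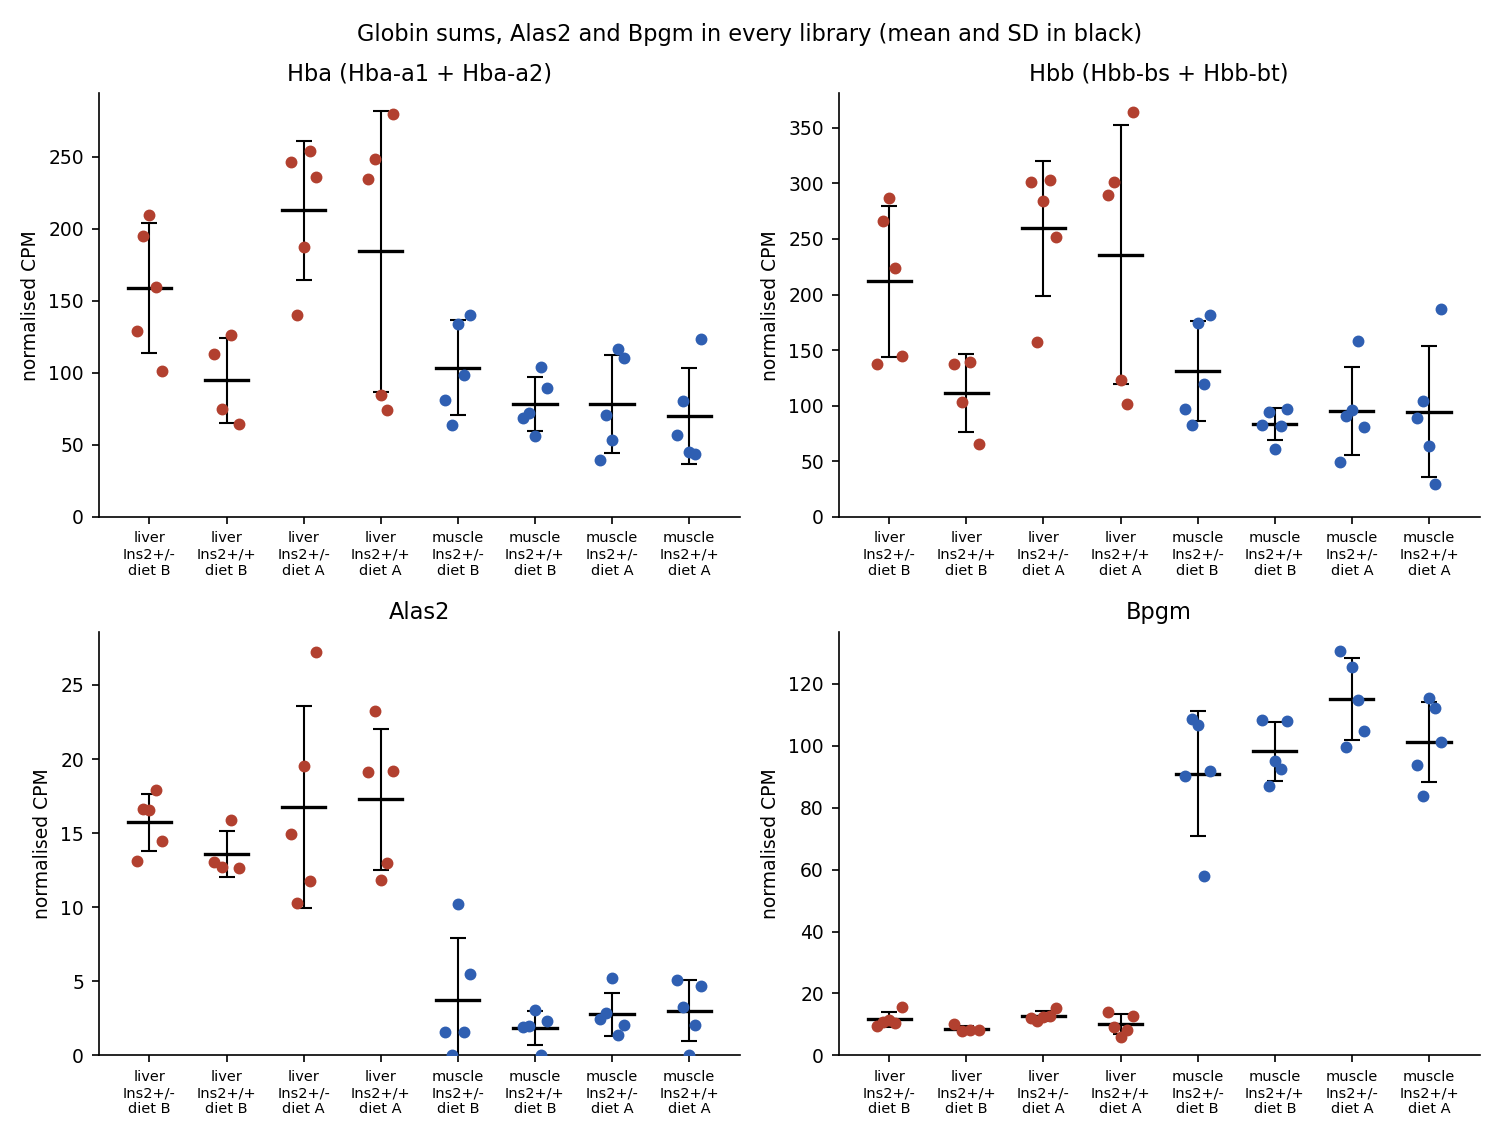
Normalised CPM (linear axes from 0) of the Hba and Hbb sums, Alas2 and Bpgm in each library (points) of the 8 groups, with the group mean (bar) and SD (whiskers); livers are red and muscles blue. The Alas2 points of liver (10.3 to 27.2) lie above those of muscle (0 to 10.2), Bpgm is the other way round (6.09 to 15.7 in liver, 58.0 to 130.5 in muscle), and the globin sums overlap.

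Alas2, the erythroid haem enzyme (chrX:150547375-150570638), was higher in liver. It stood at 10.3 to 27.2 normalised CPM in liver (median 14.9), against 0 to 10.2 in muscle (median 2.17). The ranges only just failed to overlap, with the lowest liver at 10.31 and the highest muscle at 10.23. The share of all genes without overlap was not counted, and 77.8% of genes were called between these organs. The difference was 5.52-fold (log2 2.46 ± 0.29 SE, adjusted p = 6.07e-10, edgeR). Its muscle counts were low, at 0 to 126 reads per library, and 3 muscles had 0. A count of 0 in those 3 libraries allows a level of up to 0.862, 0.967 and 1.00 CPM (3 counts of each library's total, counting error only).

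Alas2 was also higher in liver relative to globin. The log2 ratio of Alas2 to Hbb counts, with 0.5 added to each, averaged -3.60 ± 0.56 in livers (SD, n = 19) and -5.56 ± 1.57 in muscles (SD, n = 20). This is a 3.87-fold difference (permutation test with 100000 resamples, two-sided, p = 2e-05, adjusted p = 5e-05 over 5 ratios). It was 3.91-fold without the libraries that held islet transcripts. The test was added after the levels had been seen. The log2 ratios overlapped, at -4.68 to -2.36 in livers and -9.03 to -3.77 in muscles. In the 3 muscles with 0 Alas2 counts the ratio depends on the 0.5 added. Summed over libraries, where deeper ones weigh more, Alas2 had 3018 counts beside 46256 of Hbb in liver. In muscle these sums were 373 and 11387.

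Bpgm (chr6:34476207-34505613) went the opposite way. It stood at 6.09 to 15.7 normalised CPM in liver (median 10.8), against 58.0 to 130.5 in muscle (median 103). These ranges did not overlap, and the share of all genes without overlap was not counted. The level of Bpgm in liver was 0.105 times that in muscle (log2 -3.25 ± 0.09 SE, adjusted p = 5.68e-28, edgeR). A pair of enzymes of the same family is given beside it. Pgam1, the phosphoglycerate mutase of most tissues, averaged 138 ± 12.6 in liver and 21.3 ± 11.8 in muscle (SD, n = 19 and 20; 6.58-fold, adjusted p = 8.93e-19, edgeR). Pgam2, its muscle form, averaged 0.344 ± 0.344 in liver and 1110 ± 202 in muscle (adjusted p = 1.76e-32, edgeR).

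Alas1, the haem enzyme of non-erythroid cells, averaged 261 ± 139 normalised CPM in liver and 82.7 ± 25.2 in muscle (SD, n = 19 and 20; 2.99-fold, adjusted p = 1.07e-08, edgeR). It was thus higher in liver, as Alas2 was. Myoglobin (Mb), the oxygen store of muscle fibres, averaged 0.562 ± 0.918 in liver and 2214 ± 619 in muscle.

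**Figure D2:**
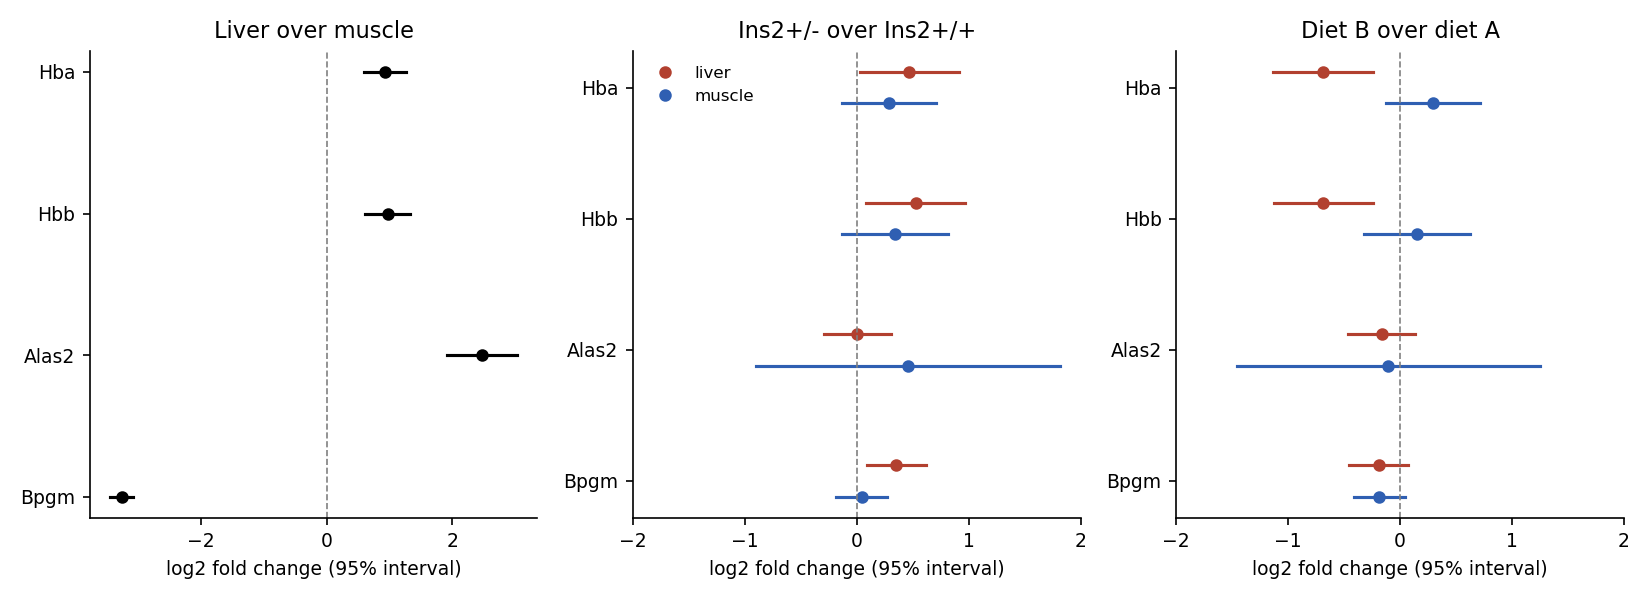
Log2 fold changes (points) with 95% intervals (estimate ± 1.96 SE) for Hba, Hbb, Alas2 and Bpgm, for liver over muscle, Ins2+/- over Ins2+/+ and diet B over diet A; the last pair is given for livers (red) and muscles (blue). The liver over muscle intervals exclude 0 for all 4 rows, and for Bpgm the value is negative (-3.25).

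Alpha and beta globin went together library by library. Across the 19 livers, log2 Hbb and log2 Hba (0.5 CPM added) had a Pearson r of 0.970 and a Spearman rho of 0.968 (permutation p = 1e-05 for each, the smallest that 100000 permutations can give; adjusted p = 7.5e-05 over 15 relations for r). Without the 2 livers farthest from the median Hbb r was 0.963, and as deviations from group means 0.959. Across the 20 muscles r was 0.838 and rho 0.765 (permutation p = 1e-05 and 0.0002, adjusted p = 7.5e-05 and 0.0015). In muscle r was 0.827 without the 2 farthest libraries and 0.817 as deviations from group means. Libraries that were high in one chain were high in the other.

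The balance of the chains was close to even. The ratio of Hbb to Hba counts lay between 1.01 and 1.52 in liver, with a median of 1.23, and between 0.671 and 1.79 in muscle. The log2 ratio averaged 0.33 ± 0.17 in livers (SD, n = 19) and 0.26 ± 0.35 in muscles (SD, n = 20), a difference of 0.07 with a permutation p of 0.457 (0.5 added to each count, adjusted p = 0.457). By genotype and by diet it differed by -0.08 to 0.11 within the tissues, and each of these 4 tests gave an adjusted p of 0.859 over 10 ratio tests.

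Within the pairs, the deposited split gave most of Hbb to Hbb-bs. Hbb-bt held 4.12% to 8.16% of Hbb counts in livers, with a median of 6.40%, and 0% to 13.3% in muscles, where 8 of 20 libraries had 0. In these 8 muscles Hbb-bs had 102 to 282 counts. Hba-a2 held 49.8% to 68.6% of Hba counts in livers and 18.1% to 76.4% in muscles. The wider range in muscle came with fewer reads, since Hba had 62 to 1646 counts per muscle and 239 to 10688 per liver.

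Hba-a1 over Hba-a2 was higher in Ins2+/- than in Ins2+/+ livers before correction. The log2 ratio averaged -0.36 ± 0.23 in Ins2+/- livers (SD, n = 10) and -0.66 ± 0.30 in Ins2+/+ livers (SD, n = 9), a difference of 0.30 (exact permutation test, two-sided, p = 0.0231, adjusted p = 0.231 over 10 ratio tests). It did not pass the correction, and in muscle the difference was -0.46 (permutation p = 0.237, adjusted p = 0.829).

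**Figure D3:**
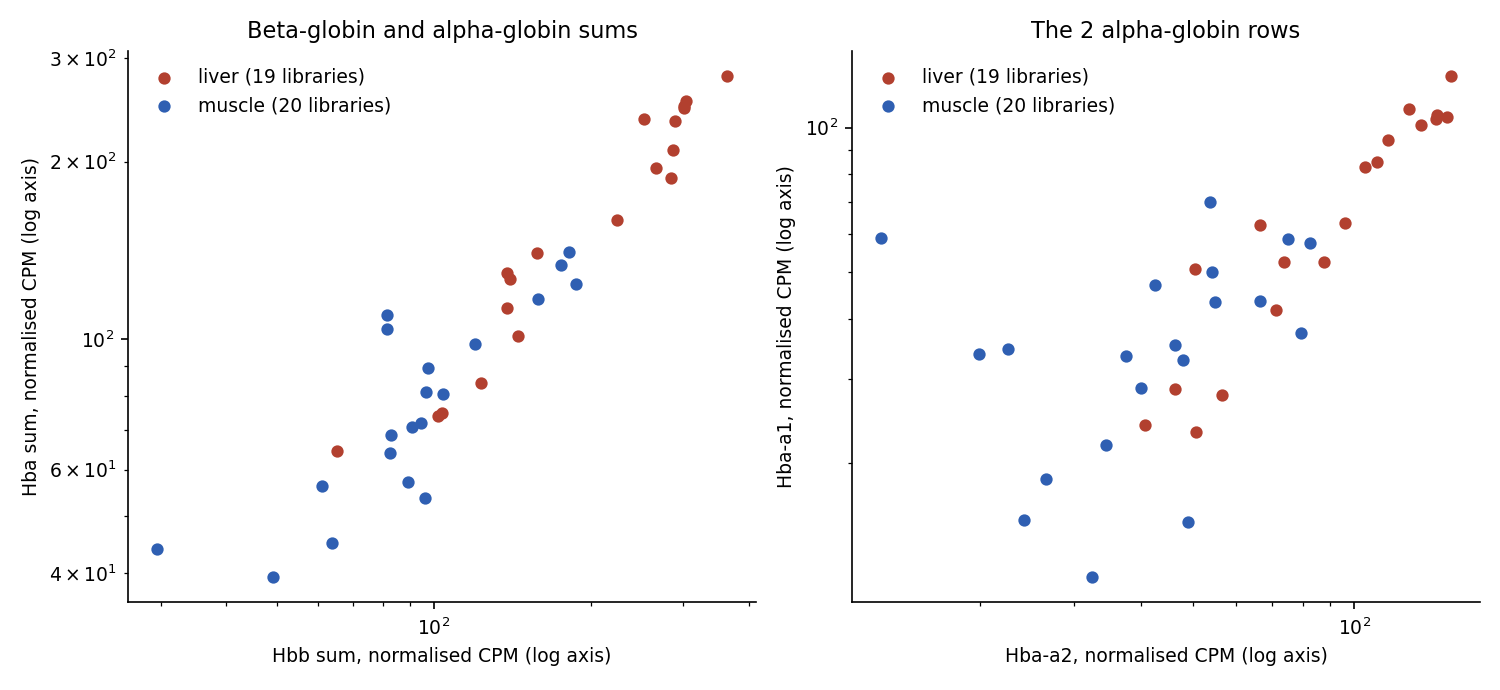
Left, the Hba sum against the Hbb sum, and right, Hba-a1 against Hba-a2, in normalised CPM on log axes, 1 point per library with livers red and muscles blue. The sums lie along a narrow band (r = 0.970 in liver and 0.838 in muscle), and the muscle points scatter more widely when the Hba rows are taken apart.

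The next question was whether Ins2 dosage changed the haemoglobin transcripts. In liver, 9 of 10 Ins2+/- samples lay above the Ins2+/+ mean of their diet for Hbb and for Hba, but neither sum passed the test. In muscle these were 6 of 10 for Hbb and 7 of 10 for Hba, and neither passed.

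On diet B, Hbb was at 138, 266, 286, 224 and 145 normalised CPM in Ins2+/- livers 1 to 5, and at 138, 103, 139.5 and 65.3 in Ins2+/+ livers 2 to 5. Hba was at 129, 195, 209.6, 159 and 101 in these Ins2+/- livers and at 113, 74.9, 126 and 64.5 in the Ins2+/+ livers. All 5 Ins2+/- livers lay above the Ins2+/+ mean for both sums, and the ranges overlapped.

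On diet A, Hbb was at 301, 157, 284, 303 and 252 normalised CPM in Ins2+/- livers 1 to 5, and at 289, 301, 123, 102 and 364 in Ins2+/+ livers 1 to 5. Hba was at 247, 140.1, 187, 254 and 236 in the Ins2+/- livers and at 234, 249, 84.3, 73.9 and 279.8 in the Ins2+/+ livers. The Ins2+/+ livers on diet A fell into 3 high and 2 low samples (3 and 4), so that the group's range spanned that of all other livers on this diet. The medians on diet A were close, at 284 in Ins2+/- and 289 in Ins2+/+ livers for Hbb, and 236 and 234 for Hba.

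Averaged over the diets, Hbb was 1.44-fold higher in Ins2+/- livers (log2 0.53 ± 0.22 SE, adjusted p = 0.462, unadjusted p = 0.0292, edgeR). Hba was 1.39-fold higher (log2 0.47 ± 0.23 SE, adjusted p = 0.522, edgeR). Of the 10 Ins2+/- livers, 9 lay above the Ins2+/+ mean of their diet for both. On diet B alone the log2 differences were 0.92 ± 0.33 for Hbb and 0.75 ± 0.33 for Hba, and on diet A 0.13 ± 0.31 and 0.20 ± 0.31 (SE), each with an adjusted p of 0.872 or more in edgeR's test, which called 0 and 1 of 11776 genes on diet B and on diet A. On diet B the unadjusted p was 0.0109 for Hbb and 0.0362 for Hba (edgeR), and 498 of the 11776 genes had one below 0.05. Leaving out liver Ins2+/+ diet A 4 gave -0.064 for Hbb on diet A, and leaving out 3 gave -0.034. The difference between the diets was itself tested as an interaction and was 0.80 ± 0.45 for Hbb (adjusted p = 0.982, edgeR).

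Bpgm was at 9.40, 10.8, 11.5, 10.6 and 15.7 normalised CPM in Ins2+/- livers on diet B, and at 10.1, 8.03, 8.08 and 8.17 in Ins2+/+ livers on diet B. On diet A it was at 12.2, 11.1, 12.4, 12.9 and 15.4 in Ins2+/- livers and at 14.0, 9.21, 6.09, 8.34 and 12.8 in Ins2+/+ livers. All 10 Ins2+/- livers lay above the Ins2+/+ mean of their diet. The average difference was 1.28-fold (log2 0.35 ± 0.13 SE, unadjusted p = 0.0159, adjusted p = 0.42, edgeR), short of the threshold.

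Alas2 averaged 16.2 ± 4.76 normalised CPM in Ins2+/- livers (SD, n = 10) and 15.6 ± 4.00 in Ins2+/+ livers (SD, n = 9). Its log2 difference was 0.01, with a 95% interval of -0.29 to 0.31 (edgeR, adjusted p = 0.997). This interval lies below the estimates for Hbb (0.53), Hba (0.47) and Bpgm (0.35), but whether Alas2 differed from them was not tested.

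In edgeR's test 0 of the 4 rows were called for genotype in liver, where 1 of 11776 genes was called in all (0.00849%). An unadjusted p below 0.05 was found for 2 rows (Hbb and Bpgm) and for 1136 of the 11776 genes. DESeq2 and limma-voom also called 0 of the 4. Marker lists of other cells are given beside this result. The 10 macrophage genes had a median log2 difference of 0.30, against -0.00 over all genes tested, 9 of 10 had an unadjusted p below 0.05 and 0 were called by edgeR, DESeq2 or limma-voom. Their summed level was 530 to 981 normalised CPM in Ins2+/- livers and 403 to 605 in Ins2+/+ livers, and its part in the globin values was not tested. The pancreatic lists had larger values, with a median log2 difference of 3.86 for 5 islet genes (5 at an unadjusted p below 0.05) and 3.28 for 8 acinar genes (8 at an unadjusted p below 0.05), and 0 called by edgeR, DESeq2 or limma-voom. Islet sums reached 3560 normalised CPM in Ins2+/- livers and 119.6 in Ins2+/+ livers, with group medians of 1.04 or less. Across the 19 livers the macrophage sum had a Pearson r of 0.0346 with log2 Hbb.

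In muscle, Hbb on diet B was at 96.6, 82.4, 175, 119.8 and 181 normalised CPM in Ins2+/- samples 1 to 5, and at 82.8, 94.5, 61.1, 81.3 and 97.2 in Ins2+/+ samples. On diet A it was at 49.2, 90.9, 96.1, 158 and 81.2 in Ins2+/- muscles and at 89.3, 104, 63.6, 29.5 and 187 in Ins2+/+ muscles. The groups overlapped on both diets, and 6 of 10 Ins2+/- muscles lay above the Ins2+/+ mean of their diet.

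Hba in muscle on diet B was at 81.4, 64.1, 134, 98.1 and 140.2 in Ins2+/- samples and at 68.7, 72.0, 56.2, 104 and 89.4 in Ins2+/+ samples. On diet A it was at 39.4, 70.8, 53.7, 117 and 110.0 in Ins2+/- muscles and at 57.1, 80.8, 45.1, 43.9 and 124 in Ins2+/+ muscles. On diet B Hbb averaged 131 ± 45.0 in Ins2+/- muscles and 83.4 ± 14.3 in Ins2+/+ muscles (SD, n = 5 each), a log2 difference of 0.62 ± 0.34 SE (adjusted p = 0.943, edgeR), and on diet A the log2 difference was 0.07 ± 0.34 SE (adjusted p = 0.999). For Hba these were 0.37 ± 0.30 and 0.20 ± 0.30. The averaged log2 differences were 0.34 ± 0.24 for Hbb, 0.29 ± 0.21 for Hba, 0.46 ± 0.69 for Alas2 and 0.04 ± 0.12 for Bpgm (SE, each with an adjusted p of 0.999 in edgeR's test). None of the 4 rows was called or had an unadjusted p below 0.05 in muscle, and 0 were called by DESeq2 or limma-voom. Of the 11957 genes tested there, 0 (0%) were called by edgeR, with 386 at an unadjusted p below 0.05, and 3 were called by DESeq2 and 0 by limma-voom. The genotype difference was higher in liver than in muscle by 0.20 ± 0.36 for Hbb and 0.19 ± 0.34 for Hba on the log2 scale (SE, adjusted p of 1.00 for each, edgeR), so a difference between the organs was not shown. For this term edgeR called 0 of 13712 genes (673 at an unadjusted p below 0.05), DESeq2 13 and limma-voom 0.

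For diet, globin transcripts were lower in livers of mice on diet B than on diet A, but the difference did not pass the adjustment over all genes. Hbb averaged 212 ± 68.2 normalised CPM on diet B and 259.5 ± 60.8 on diet A in Ins2+/- livers (SD, n = 5 each), and 111 ± 35.0 on diet B and 236 ± 116 on diet A in Ins2+/+ livers (SD, n = 4 and 5). Hba averaged 159 ± 44.9 on diet B and 213 ± 48.1 on diet A in Ins2+/- livers, and 94.7 ± 29.7 on diet B and 184 ± 97.4 on diet A in Ins2+/+ livers. For Hba 9 of 9 livers on diet B lay below the diet A mean of their genotype, and for Hbb 7 of 9. The groups overlapped in each genotype.

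The averaged log2 difference was -0.69 ± 0.23 (SE) for Hbb, which is 0.622-fold (unadjusted p = 0.0062, adjusted p = 0.172, edgeR), and -0.69 ± 0.23 for Hba (unadjusted p = 0.0067, adjusted p = 0.177, edgeR). In Ins2+/+ livers alone the log2 differences were -1.08 ± 0.33 for Hbb and -0.96 ± 0.34 for Hba, and in Ins2+/- livers -0.29 ± 0.30 and -0.41 ± 0.31 (SE, edgeR, adjusted p of 0.467 or more). In each genotype 5 of 11776 genes (0.0425%) were called. In Ins2+/+ livers the unadjusted p was 0.0039 for Hbb and 0.0095 for Hba (edgeR), and 736 of the 11776 genes had one below 0.05. Averaged over the genotypes, Alas2 differed by -0.16 ± 0.15 and Bpgm by -0.19 ± 0.13. In edgeR's test 0 of the 4 rows were called, where 28 of 11776 genes (0.238%) were called. An unadjusted p below 0.05 was found for 2 of the 4 rows and for 1511 of the 11776 genes. DESeq2 and limma-voom called 0 of the 4.

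In muscle no diet value of the globins passed the test, and the averaged values were positive. Hbb averaged 107 ± 40.3 normalised CPM on diet B and 94.9 ± 47.3 on diet A (SD, n = 10 each), with a log2 difference of 0.15 ± 0.24 SE. Hba averaged 90.8 ± 28.6 on diet B and 74.1 ± 32.1 on diet A, with a log2 difference of 0.30 ± 0.21 SE. In Ins2+/- muscles alone the log2 differences were 0.42 ± 0.34 for Hbb and 0.38 ± 0.30 for Hba, and in Ins2+/+ muscles -0.12 ± 0.34 and 0.21 ± 0.30 (SE, edgeR, adjusted p of 0.950 or more). Bpgm averaged 94.6 ± 15.4 on diet B and 108 ± 14.3 on diet A, with a log2 difference of -0.19 ± 0.12 SE. Each averaged difference had an adjusted p of 0.999 in edgeR's test, where 1 of 11957 genes (0.00836%) was called and 0 of the 4 rows, 0 of them at an unadjusted p below 0.05, and 0 by DESeq2 or limma-voom.

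Whether diet acted differently in the organs was tested in the fit over all libraries. The diet difference of Hba was lower in liver than in muscle by 0.97 ± 0.34 on the log2 scale (value -0.97, unadjusted p = 0.007, adjusted p = 0.668, edgeR), and that of Hbb by 0.83 ± 0.36 (value -0.83, adjusted p = 0.846). Neither was called, and 0 of 13712 genes (0%) were called for this term by edgeR, 700 of them with an unadjusted p below 0.05, while DESeq2 called 17 and limma-voom 0.

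The other transcripts of the erythroid programme were then examined, from a list of 38 genes of which 37 are in the tables. Several that are known from red cells and their precursors, chosen after their values were seen, were at or close to 0. Slc4a1 (band 3, the main anion exchanger of the red cell membrane) averaged 0.488 normalised CPM in liver, with a highest value of 5.14, and had 0 counts in all 20 muscles. Hemgn, Kel, Trim58 and Gfi1b averaged below 0.1 in both tissues. The transcription factor Klf1 averaged 1.24 in liver and 0.0189 in muscle, and Gata1 0.122 in liver and 0.127 in muscle. Other listed genes were detected in all 19 livers. Car1 (carbonic anhydrase 1, abundant in red cells) averaged 5.42 in liver and 0.813 in muscle (8.41-fold, adjusted p = 1.92e-07, edgeR), and Epor (the erythropoietin receptor) averaged 1.57 in liver and 0.228 in muscle (adjusted p = 8.50e-07, edgeR). Tal1, a factor of blood and endothelial cells, averaged 1.67 in liver and 3.22 in muscle (adjusted p = 0.00648, edgeR). The embryonic globins Hba-x, Hbb-y, Hbb-bh1 and Hbb-bh2 had 0 counts in all 39 libraries.

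The listed genes with the highest levels are also used by other cells. In liver these were Fech (ferrochelatase, the last enzyme of haem synthesis; 166 ± 13.3 normalised CPM), Epb41 (110 ± 11.2), Acp5 (92.4 ± 9.67), Bnip3l (71.5 ± 7.14), Xpo7 (63.7 ± 4.73) and Ube2l6 (56.2 ± 8.25; SD, n = 19 each). In muscle they were Ank1 (498 ± 89.8), Sptb (276 ± 59.4), Fech (180 ± 21.5), Tfrc (the transferrin receptor, 119.5 ± 36.7), Epb41 (119 ± 18.4) and Xpo7 (67.5 ± 13.7; SD, n = 20 each). Ank1 and Sptb make membrane-skeleton proteins that muscle fibres also use.

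Between the tissues, 21 genes of the list were tested, 8 were called higher and 8 lower in liver, and their median log2 difference was -0.12, against -0.04 over all genes. Those called at the lowest adjusted p were Ank1 (log2 -11.31 ± 0.25 SE, adjusted p = 2.38e-31, edgeR), Sptb (-5.94 ± 0.15), Tmcc2 (-3.40 ± 0.13) and Tfrc (-3.11 ± 0.14), all lower in liver. The share called, 16 of 21, is close to the 77.8% of all genes. Within the tissues 0 of the 18 tested in liver and 0 of the 19 tested in muscle were called by edgeR for genotype or for diet. At an unadjusted p below 0.05 there were 3 and 2 in liver and 1 and 3 in muscle for genotype and diet in that order. Over all genes these counts were 1136 and 1511 of 11776 in liver and 386 and 454 of 11957 in muscle. DESeq2 called 0 of the listed genes in all 4 comparisons and limma-voom 1 for diet in liver.

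**Figure D4:**
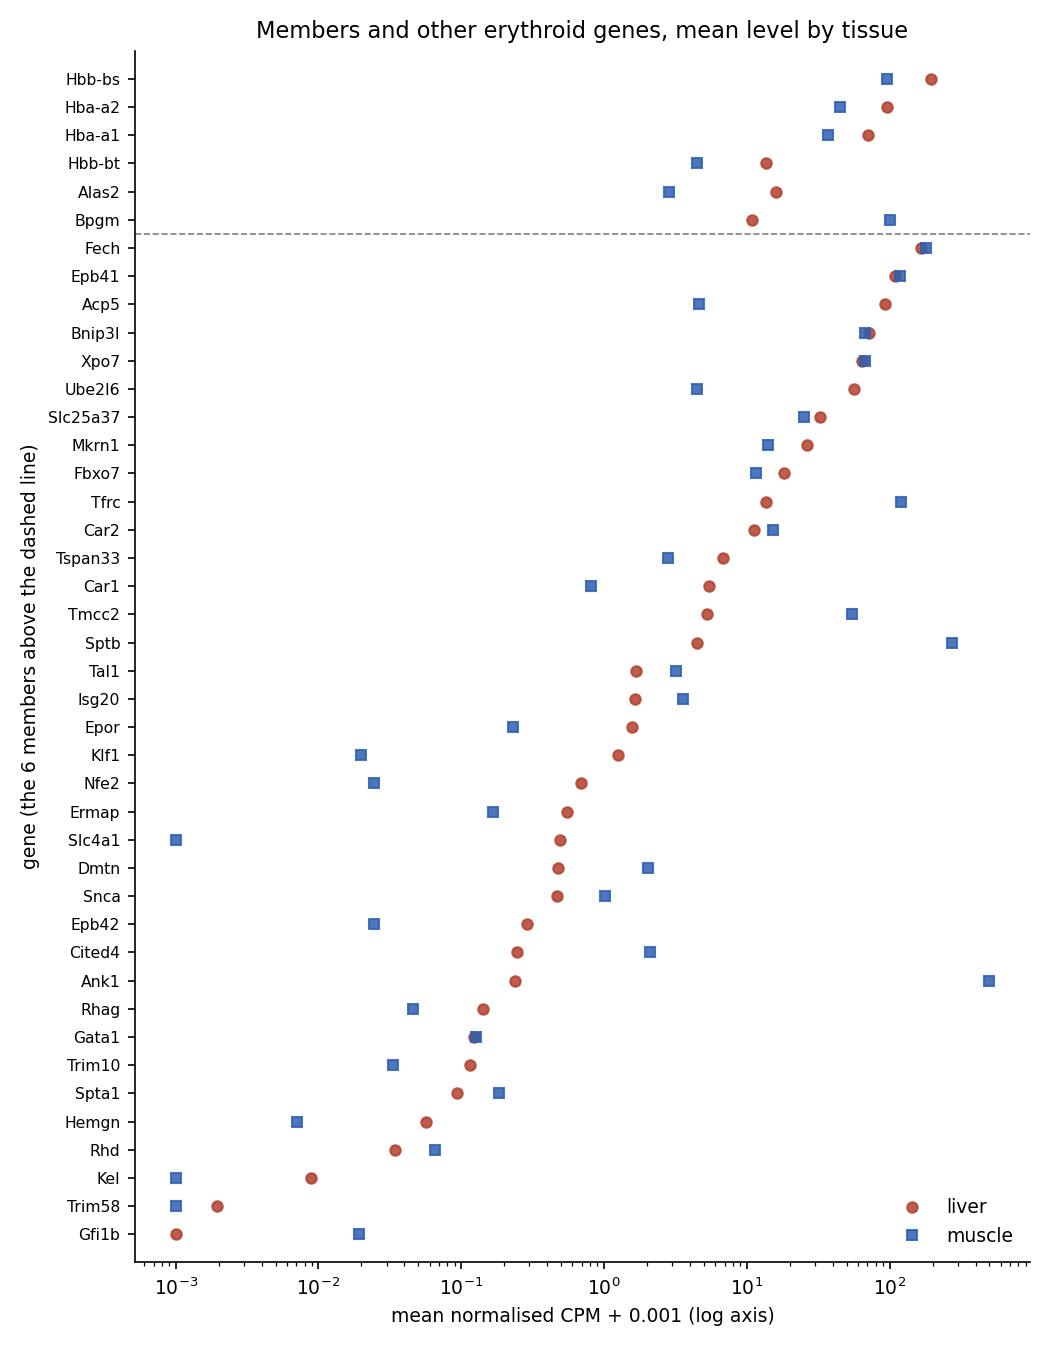
Mean normalised CPM (plus 0.001, log axis) of the 6 members, above the dashed line, and of other listed erythroid genes, in liver (red circles) and muscle (blue squares). The genes from Rhag downward lie under 1 CPM in both tissues, and genes at 0 sit at the left edge.

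The lists of haem synthesis and of clearance were read against the 77.8% of all genes called between the organs (38% higher and 39.8% lower in liver). Of the 9 enzymes of haem synthesis listed, which include Alas1, Alas2 and Fech, 7 were called higher in liver by edgeR and 0 lower, with a median log2 difference of 1.14. Those called included Cpox (log2 2.62 ± 0.12 SE) and Alad (2.54 ± 0.15), which make intermediates of the haem ring, and Alas2. Of 10 genes that bind or clear haemoglobin, haem and iron, 8 were called higher in liver and 0 lower. In both lists the number called is near the share over all genes, and the calls were in 1 direction. The clearance genes included Ftl1 (ferritin light chain, log2 3.64 ± 0.10 SE), Slc40a1 (ferroportin, the iron exporter, 3.13 ± 0.10), Lrp1 (the haem-haemopexin receptor, 2.91 ± 0.09) and Hpx (haemopexin, 7.68 ± 0.33). For genotype and diet, 0 genes of either list were called in either tissue by edgeR or DESeq2. At an unadjusted p below 0.05 there were 0 and 1 in liver and 0 and 0 in muscle for haem synthesis, and 2 and 0 in liver and 1 and 1 in muscle for clearance, for genotype and diet in that order. Over all genes these counts were 1136 and 1511 of 11776 in liver and 386 and 454 of 11957 in muscle. Limma-voom called 1 gene of haem synthesis for diet in liver.

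Counts of called markers of other blood cells stand against the same shares over all genes (77.8% called, 38% higher in liver). Of 6 general leukocyte genes, 5 were called higher in liver (Laptm5 at log2 1.57, Ptprc, which makes CD45, at 1.76, Rac2 at 2.35 and Cd53 at 1.48) and 0 lower. Platelet transcripts were low, with summed levels of 2.35 to 5.56 normalised CPM in liver and 0 to 23.0 in muscle. Neutrophil sums were 11.4 to 141 in liver and 0.865 to 12.1 in muscle, and lymphocyte sums 16.6 to 41.7 in liver and 35.5 to 296 in muscle. Of 4 lymphocyte genes tested, 3 were called higher in liver, among them Ms4a1 (CD20, log2 3.58 ± 0.55), and 1 lower, Ighm (the IgM heavy chain, -3.30 ± 0.19). Ighm, at 11.8 in liver and 116 in muscle on average, made up most of the lymphocyte sum in muscle.

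Across libraries, log2 Hbb had a Pearson r of -0.0662 with the summed leukocyte genes in liver and 0.0182 in muscle, and of 0.0346 and -0.162 with the macrophage sum. With the endothelial sum r was -0.361 in liver and 0.268 in muscle. Spearman rho lay between -0.333 and 0.319 for these, and every permutation p was at least 0.129 for r (adjusted p of 0.241 or more over 15 relations). With the sum of the other erythroid genes r was 0.475 in liver (rho 0.391, p = 0.0414, adjusted p = 0.124) and -0.0474 in muscle (rho 0.00902, adjusted p = 0.94), each by permutation. Without the 2 libraries farthest from the median the liver value was 0.334. With the endothelial sum, r was -0.578 without the livers that held islet transcripts (n = 13, permutation p = 0.0393, adjusted p = 0.118). With the macrophage sum in liver, r was -0.424 as deviations from group means (permutation p = 0.0702, adjusted p = 0.15).

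In liver, Alas2 and Bpgm rose with the globins over all libraries. There r between log2 Hbb and log2 Alas2 was 0.612 (rho 0.542, permutation p = 0.00557 and 0.0178, adjusted p = 0.0209 and 0.0668), and 0.598 without the 2 farthest libraries (adjusted p = 0.0533). Between Hbb and Bpgm it was 0.636 (rho 0.656, permutation p = 0.00354 and 0.00292, adjusted p = 0.0177 and 0.0146), and 0.575 without the 2 farthest (adjusted p = 0.0533). The r values thus changed little without those libraries (unadjusted p = 0.0114 and 0.0142 by permutation, n = 17), while the adjusted p just missed the threshold. As deviations from group means the values were 0.609 for Alas2 (adjusted p = 0.0284) and 0.499 for Bpgm (adjusted p = 0.0829). Without the livers that held islet transcripts (n = 13) r was 0.634 for Alas2 and 0.605 for Bpgm. Neither passed there (adjusted p = 0.105 and 0.112, by permutation).

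In muscles r was 0.372 for Alas2 (rho 0.360, permutation p = 0.109, adjusted p = 0.233) and -0.292 for Bpgm (rho -0.377, permutation p = 0.203, adjusted p = 0.338). Whether the liver and muscle correlations differ was not tested. The log2 ratio of Bpgm to Hbb counts averaged -4.15 ± 0.55 in livers (SD, n = 19) and 0.11 ± 0.76 in muscles (SD, n = 20; permutation p = 1e-05, the smallest possible, adjusted p = 5e-05 over 5 ratios). Bpgm thus stood high in the organ with less globin.

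**Figure D5:**
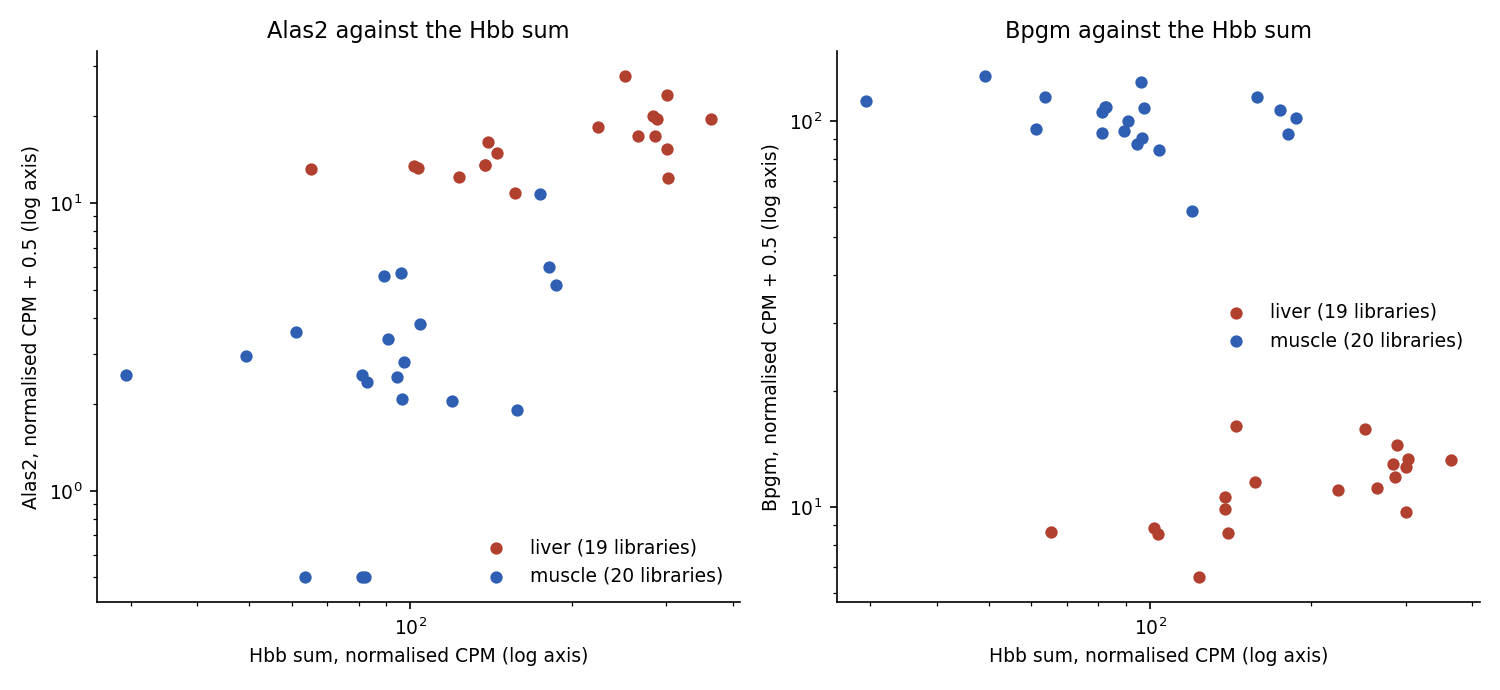
Alas2 (left) and Bpgm (right), in normalised CPM plus 0.5, against the Hbb sum, on log axes, 1 point per library with livers red and muscles blue. In liver both rise with Hbb (r = 0.612 and 0.636), and in muscle Bpgm stays between 58.0 and 130.5 over the whole range of Hbb.

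Few transcripts resembled the globins in pattern. Over the 19 livers, the named genes with the highest Pearson r of log2 CPM with the log2 sum of the 4 globins were Txndc11 (0.766), Ogfod1 (0.763), Pus7 (0.761), Kti12 (0.731), C1qbp (0.720) and Ndufaf8 (0.718). Over the 20 muscles they were Tonsl (0.677), Rcor1 (0.665), Bloc1s1 (0.647), Nup214 (0.611), Nbeal1 (0.611) and Otud1 (0.607). Of 11772 other genes tested in liver and 11953 in muscle, 0 had an r beyond 0.8 in either direction. Hba and Hbb, which form the sum, stood at 0.990 and 0.994 in liver and at 0.947 and 0.967 in muscle. These values are the extremes over all genes tested and are given as a description. The 18 other erythroid genes tested in liver had r between -0.155 (Tfrc) and 0.401 (Fech), and the 19 in muscle between -0.414 (Bnip3l) and 0.489 (Car2).

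The globin sum had an r of 0.179 with log2 library size in liver and 0.0319 in muscle, of 0.0951 in liver and -0.0230 in muscle with the log2 islet transcript level, and of 0.233 in liver and -0.0692 in muscle with the mitochondrial share of counts. The highest muscle for islet transcripts, Ins2+/- diet B 4 at 7127 CPM, had 218 normalised CPM of globin, within the range of the other muscles (73.4 to 322). The ratio of the highest to the lowest library within a group varied between groups. For Hba and Hbb it was 3.79-fold and 3.58-fold in Ins2+/+ livers on diet A, and 1.81-fold and 1.93-fold in Ins2+/- livers on diet A. For Hbb in Ins2+/+ muscles it was 6.35-fold on diet A and 1.59-fold on diet B. This ratio is a different measure from a fold change between group means.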

How the data were processed

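Liver and muscle RNA (400 ng per library) was sequenced with the TruSeq RNA version 2 kit, which does not mark strand, on a HiSeq 2500, per the labels' protocols. Per the submitters' processing notes, kallisto 0.42.3 and GRCm38 were used, and DESeq2 is named with no role. The deposited files hold kallisto's estimated counts per gene, made by the authors, with 46517 genes per library and no normalisation found. Kallisto divides reads among near-identical transcripts by likelihood.

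Estimated counts were rounded, Hba-a1 with Hba-a2 and Hbb-bs with Hbb-bt were summed, and symbols and transcripts came from GENCODE (GRCm38; 98.9% of identifiers matched). Promoters came from RefSeq. The quasi-likelihood test of edgeR 4.0.16 (R 4.3.3), after filterByExpr by group and TMM scaling, modelled 4 groups per tissue (15 and 16 residual degrees of freedom in liver and muscle) and 8 in the fit of both (31), and Benjamini-Hochberg adjustment over all genes tested. DESeq2 1.42.0 and limma 3.58.1 served as alternatives. Ratios and relations were tested by permutation (numpy 2.4.6). Replicates are separate samples in the labels. P-values set a difference or relation against the spread between these samples. The liver against muscle tests treat all 39 libraries as separate, although the labels do not say whether organs share a mouse. Library totals of 1060465 to 54249746 set the precision.

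Named genes were the members, up to 4 called genes per list, the 6 most abundant other erythroid genes per tissue, Mb, Alas1, Pgam1, Pgam2, and the 6 genes per tissue most correlated with the globin sum. A few listed genes are not reported here. Members and lists were chosen with earlier results of these data known. Alternatives are given in the closing section. Same-numbered samples of different groups were checked for shared deviations and are not treated as pairs.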

Additional observations from a re-analysis of the deposited data

Results flagged for a closer look

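In 32 groups (4 rows in 8 groups of 4 or 5 libraries), 2 held a library far from the others by Dixon's criterion, which chance gives in about 1 group in 20. Both are Ins2+/+ livers on diet B, the group of 4. Alas2 was at 15.9 normalised CPM in replicate 4, against 12.6 to 13.1 in the others. Bpgm was at 10.1 normalised CPM in replicate 2, against 8.03 to 8.17 in the others. Neither library stood apart in Hba or Hbb.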

How the results depend on the processing

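The liver over muscle calls of Hba, Hbb, Alas2 and Bpgm held under every alternative run, with log2 ranges of 0.76 to 1.09 for Hba, 0.86 to 1.45 for Hbb, 2.37 to 2.69 for Alas2 and -3.36 to -3.10 for Bpgm. The stricter filter removed Alas2 from the muscle fit. Scaling moved the median of all genes between the tissues, at -0.04 with TMM, to 0.12 with RLE and -0.14 with upper-quartile scaling. No genotype or diet value of the 4 rows was called under any alternative. Leaving out each library in turn gave log2 values of 0.43 to 0.63 for Hbb and 0.37 to 0.57 for Hba by genotype in liver, and of -0.78 to -0.58 and -0.79 to -0.59 by diet. By genotype on diet B in liver, the alternatives gave 0.81 to 1.16 for Hbb and 0.60 to 0.95 for Hba. These alternatives include livers B 2 and B 3 as 1 and the single globin rows.

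Some signs turned. Unsummed, Hba-a1 was at -0.0030 by genotype and Hbb-bt at -0.22 by diet in muscle. Alas2 was at -0.029 (limma-voom) and -0.0026 (livers B 2 and B 3 as 1) by genotype in liver, and at 0.12 (limma-voom) by diet in muscle. Bpgm by genotype in muscle was at -0.029 without libraries with islet transcripts.

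For Hbb, diet in Ins2+/+ muscles was at 0.031 with all globins summed, and genotype on diet A in muscle at -0.23 (limma-voom) and -0.070 (without islet libraries). For Hba, genotype in muscle was at -0.080 on diet A (limma-voom) and, for the Hba-a1 row, at -0.016 on diet B. The genotype difference between organs was at -0.14 for the Hba-a2 row and -0.21 for Hbb-bt.

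Leaving out single libraries, the values were -0.0054 to 0.39 (Hba) and -0.064 to 0.34 (Hbb) by genotype on diet A in liver, -0.19 to 0.47 (Hbb, genotype on diet A, muscle), -0.35 to 0.27 (Hbb, diet in Ins2+/+, muscle), -0.076 to 0.079 (Alas2, genotype, liver), -0.49 to 0.074 (Alas2, diet, muscle), -0.0016 to 0.093 (Bpgm, genotype, muscle), -0.16 to 0.27 (Hba-a1 over Hba-a2, diet, muscle), and -0.041 to 0.024 and -0.017 to 0.050 (Hbb over Hba, diet and genotype, liver). Hba-a1 over Hba-a2 by genotype in liver was at 0.24 to 0.35, and its unadjusted p stayed below 0.05.

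Pearson r of Hbb with macrophages in liver was -0.424 as deviations from group means and -0.0527 without the 2 farthest libraries. In muscle it was -0.0605 without the 2 farthest and -0.124 without islet libraries for leukocytes, and 0.160, 0.000910 and 0.107 (also as deviations) for other erythroid genes.

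Counts of called genes depended on the tool. For diet in liver edgeR called 28, DESeq2 193 and limma-voom 292, and for genotype 1, 32 and 14. In muscle, edgeR called 1 for diet and 0 for genotype, DESeq2 4 and 3, and limma-voom 1 and 0. The cause of these changes was not tested. With the replicate number as a block, edgeR called 42 and 1 genes, Hbb was at -0.69 by diet (adjusted p = 0.233) and 0.53 by genotype in liver, and no call of the 4 rows changed. Same-numbered samples of different groups had a median correlation of 0.0480 in liver (-0.216 to 0.252) and 0.0449 in muscle (-0.0837 to 0.265). For samples of different numbers the medians were -0.0150 in liver and -0.00741 in muscle. In liver 5 of 19 libraries matched their own number best, and in muscle 9 of 20. Whether samples of a number share anything was not tested, and the numbers were not used as pairs.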

Other observations

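Livers and muscles of the same group and replicate number had a Pearson r of 0.401 for log2 Hbb (n = 19 pairs, rho 0.418, permutation p = 0.0903 and 0.0773, adjusted p = 0.226 and 0.216 over 15 relations). As deviations from group means r was 0.489 (permutation p = 0.0332, adjusted p = 0.0829), and without the 2 farthest livers 0.337. Over all genes, same-labelled livers and muscles had a median correlation of 0.00685, and the labels do not say that they share a mouse.

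The deposited split of Hbb gave no stable difference between the organs. Summed over libraries, Hbb-bt was 7.16% of Hbb counts in liver (3311 of 46256) and 6.44% in muscle (733 of 11387). A higher share than in any liver was seen in 5 muscles. They included replicate 1 of every muscle group, at 10.9% (Ins2+/+ diet A), 9.09% (Ins2+/+ diet B), 13.3% (Ins2+/- diet A) and 10.1% (Ins2+/- diet B). The remaining one was Ins2+/- diet A 2, at 12.4%. Whether the share goes with replicate number was not tested. The log2 ratio of Hbb-bs to Hbb-bt counts (0.5 added) averaged 3.88 ± 0.30 in livers (SD, n = 19) and 5.76 ± 2.46 in muscles (SD, n = 20; permutation p = 0.00193, adjusted p = 0.00322 over 5 ratios). Without the libraries that held islet transcripts the adjusted p was 0.145, and 8 muscles had 0 counts of Hbb-bt, where the ratio depends on the 0.5 added.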
